A study of Arvicanthis niloticus with 28 samples.

Results

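A list of 10 genes of the inhibitor of apoptosis (BIRC) and BCL2 families was followed through the retinal vasculature of 28 Nile rats. They were taken as a named list, Birc5, Birc2, Birc3, Birc6, Xiap, Bcl2, Bcl2l1, Mcl1, Bax and Bak1, and all 10 stood among the 18970 genes of both deposited tables, one of expected counts and one of transcripts per 1000000 (TPM). The list was set by gene family, though with earlier results of these data known. Birc5 is also a gene the study itself selected in a comparison of these same rats. Its direction between the groups is therefore not independent evidence. Of the 10 symbols, 8 were found in the RefSeq annotation of the Nile rat, Birc2 and Birc3 not by that name. The tables carry mouse symbols and name no genome build, so no coordinates are given.

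Programmed death of a cell through its mitochondria is set by the BCL2 family. Bax and Bak1 open the outer mitochondrial membrane and release cytochrome c, Bcl2, Bcl2l1 and Mcl1 hold them back, and the BH3-only proteins free them. Released cytochrome c drives caspases, which Xiap binds and blocks directly, while Birc2 and Birc3 are ubiquitin ligases that act mainly in signalling from tumor necrosis factor receptors to NF-kB, and Birc5 (survivin) works chiefly as a subunit of the complex that guides chromosomes in dividing cells. Acellular capillaries, the empty basement membrane tubes counted in diabetic retinopathy, remain where endothelial cells and pericytes have died.

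RNA of whole retinal vasculature, freed of neurons by osmotic lysis and washing, was sequenced from 28 rats, with 1 library a rat. The pre-dropout group held the 4 rats with 17 to 18 acellular capillaries per square millimeter (17.1 to 17.9), all wild-type, untreated males with a random blood glucose of 57.4 to 443 mg/dL. The normal group held the 24 rats below 16 per square millimeter (5.90 to 14.5), also wild-type and untreated, 8 males and 16 females with 52 to 422 mg/dL. The study kept its rats on a high-fiber or a high-caloric diet, and the diet and age of single rats were not analysed here.

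Depth varied widely. Totals were 153111 to 10029207 counts a library, and 7502 to 16139 genes had at least 1 count. A count of 0 allows up to 3 counts by counting error alone, which is 0.302 to 15.3 when counts are divided by the TMM-scaled library size and expressed per 1000000 (CPM). Capillary wall markers were present in every library. The 8 endothelial markers, Pecam1 and Cdh5 among them, summed to 4605 to 8630 CPM in pre-dropout rats and 2696 to 8396 CPM in normal rats, and the 6 pericyte markers to 2131 to 9801 CPM and 1864 to 10552 CPM in the same order. Rod photoreceptor markers still summed to 191 to 716 CPM in pre-dropout rats and 129 to 3864 CPM in normal rats, and 8 microglial markers to at most 23.4 CPM and 60.6 CPM. In bulk RNA, fewer cells of a type and less RNA per cell cannot be told apart.

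The libraries also fell into 2 sets by how a count was turned into TPM. The length of Birc6 relative to that of Mcl1, which the ratio of count to TPM implies, was 39.6 to 39.7 in 16 libraries (set A) and 41.4 to 41.7 in the other 12 (set B). The labels name no batch for this. All 4 pre-dropout rats are in set A, with 12 normal rats of which 3 are males.

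The 10 genes spanned 502-fold in median TPM, a unit that divides by transcript length. It lets genes be set side by side only as far as the lengths used are right. Median TPM over the 28 rats was 316 for Mcl1, 113 for Bcl2l1, 65.6 for Birc2, 47.4 for Xiap, 26.8 for Bax, 20.8 for Bak1, 9.996 for Birc6, 8.20 for Birc3, 2.18 for Bcl2 and 0.630 for Birc5. Mcl1 stood first of the 10 in 28 of 28 rats. Of the 9 neighbouring pairs in this order, 3 differed beyond the spread between rats in a two-sided permutation test on log2(TPM + 1) within rats, adjusted over the 9 pairs. Mcl1 exceeded Bcl2l1 in 28 of 28 rats (adjusted p = 0.00018), Bcl2l1 exceeded Birc2 in 26 (adjusted p = 0.00018) and Xiap exceeded Bax in 23 (adjusted p = 0.00642). The other 6 pairs did not pass, with adjusted p from 0.129 to 0.801, and pairs further apart in the order were not tested.

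The place of Mcl1 depended on the scale. The deposited values imply a transcript of Bcl2l1 3.94 times, of Xiap 11.4 times and of Birc6 39.7 times as long as that of Mcl1 (medians). On the CPM scale, which does not divide by length, Xiap had the highest median (135), then Bcl2l1 (122), Birc6 (104) and Mcl1 (78.1). The shorter the model of Mcl1 used in the assignment of reads, the higher its TPM, and its true length in the Nile rat was not tested.

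**Figure D1:**
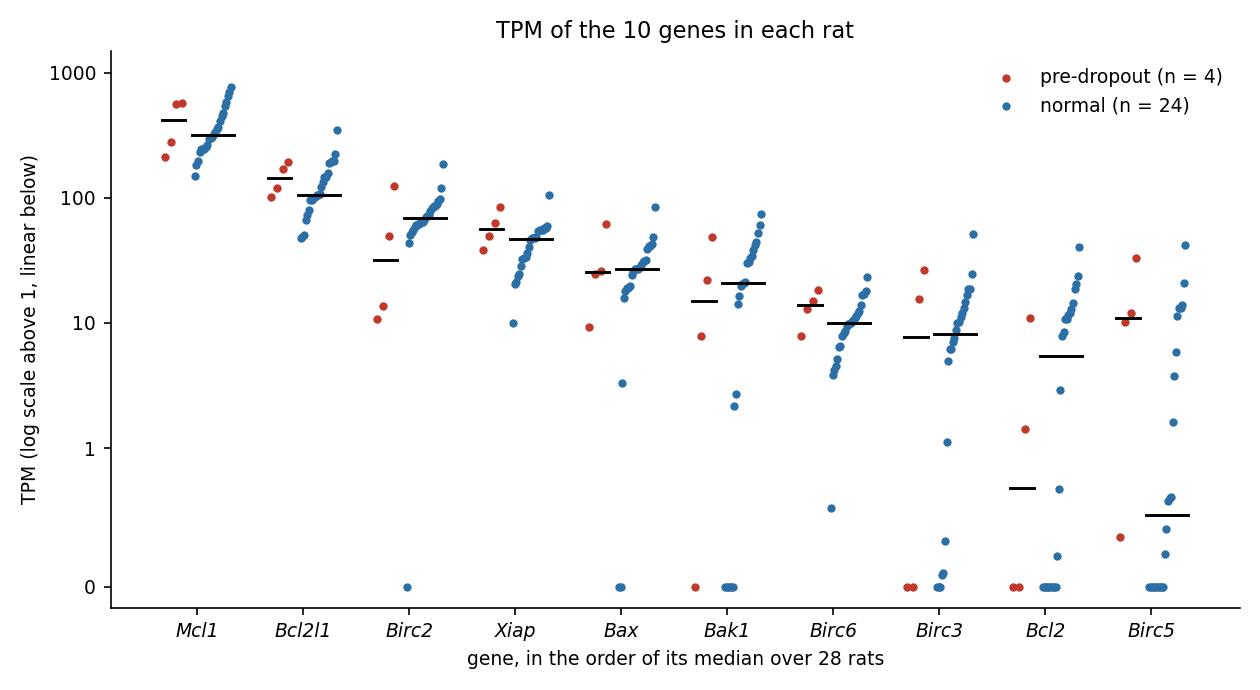
TPM of the 10 genes (log scale above 1, linear below) in each pre-dropout rat (red, left) and each normal rat (blue, right), with a black bar at the group median and rats ordered by value within a group. The medians over 28 rats run from 316 for Mcl1 to 0.630 for Birc5, the groups overlap in each gene, and values at 0 appear from Birc2 downwards, though none in Xiap or Birc6.

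Coverage and spread between rats differed widely among the members. Xiap, Birc6, Bcl2l1 and Mcl1 had at least 22 counts in every library, with a coefficient of variation of CPM of 0.417 (Birc6) to 0.488 (Bcl2l1). Birc2 and Bax came next, with coefficients of 0.484 and 0.658, and a count of 0 in 1 and 2 libraries. Bak1, Birc3, Bcl2 and Birc5 were sparse, with coefficients of 0.935, 1.16, 1.30 and 1.69, and with counts of 0 in 7, 5, 11 and 10 libraries. Zeros of this kind were common in the tables. At least 1 library stood at 0 in 100% of genes with a median of 1 to 5 CPM, the class of Bcl2 (1.55). The share was 99.8% at 5 to 10 CPM, the class of Bak1 (9.36), and 96.6% at 10 to 20, that of Birc3 (11.3). Median coefficients in these classes were 1.35, 1.12 and 0.917, so Bcl2 and Bak1 lay below theirs and Birc3 above. The median of Birc5 (0.387 CPM) lay below these classes. At 20 to 50 CPM, the class of Birc2 and Bax, the share was 67.6%, and at 50 to 100 CPM 18.9%. Having a zero therefore did not set Bcl2, Bak1 or Birc3 apart from other genes of their level. Several zeros of the members stood in deep libraries. Rat T424M, with the largest total, held 756 counts of Birc3 and 0 of Bak1, Bcl2 and Birc5. Rat T430F held 1943 counts of Bcl2l1 and 0 of Bax, Bcl2 and Birc5.

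Birc5, which encodes survivin, was at the edge of detection and carried the widest contrast between the groups. In pre-dropout rats it had 5.95 CPM in T353M, 0.231 in T389M, 5.96 in T391M and 23.4 in T407M, from 25, 1, 20 and 54 counts. Normal rats had a lowest value of 0, a median of 0.314 and a highest of 22.9 CPM, in T419F. T407M was the highest of all 28 rats and T389M lay below the normal median, and 13 normal rats fell inside the range of the pre-dropout rats, so the groups overlapped. Means were 8.88 ± 10.04 CPM in pre-dropout rats (SD, n = 4) and 2.85 ± 5.23 CPM in normal rats (SD, n = 24). In edgeR the log2 fold change was 1.61 with a standard error of 1.48 (adjusted p = 0.9999), and it was 0.56 without T407M.

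The estimate for Birc5 moved with the sex of the normal rats. Among the 8 normal males, 5 had no count of Birc5 and the others had 1, 2 and 10 counts, whereas 11 of the 16 normal females had at least 1 count and 7 had at least 10. With sex as a covariate the log2 fold change of pre-dropout rats was 4.23 (standard error 1.83), with an unadjusted p of 0.0260 and an adjusted p of 0.939 in edgeR. The 3 normal males of set A were all at 0. Against the limit of 3 counts in each of them, the mean of the 4 pre-dropout males was at least 7.14-fold higher (at least 3.25-fold without T407M), and 3 of the 4 lay above the highest of those limits. This limit covers counting error in those 3 rats only, not the spread between rats, and does not bound a group difference. The sets were defined after the data were seen, and the normal male T446M, with 10 counts (2.33 CPM), is in set B. The difference of normal males from normal females was itself not called. Birc5 was removed by the filter on low counts there, and without the filter its log2 fold change, male over female, was -3.06 (standard error 1.62, adjusted p = 0.332 in edgeR).

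Detection of Birc5 also went with the number of genes a library held. At least 10 counts were found in 9 of the 14 libraries with the median number of genes or more, and in 2 of the 14 below it. Such a split favors finding any gene of low count in the upper part, and other genes of that level were not compared. Of its partners in the chromosomal passenger complex, Incenp was counted in 21, Aurkb in 11 and Cdca8 in 8 of the 28 libraries, against 18 for Birc5. Rat T407M, highest in Birc5, had counts for 8 of 20 cell division genes, and T391M, with 5.96 CPM of Birc5, for 20 of 20. The part of library breadth in the values of Birc5 was not tested.

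**Figure D2:**
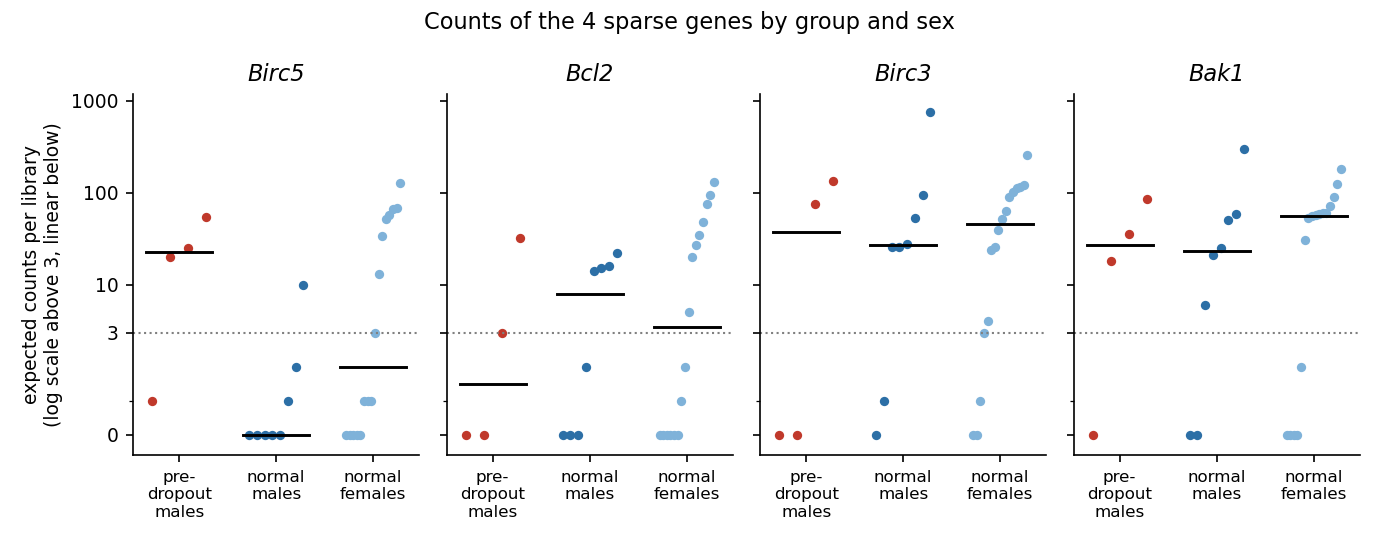
Expected counts per library (log scale above 3, linear below) of Birc5, Bcl2, Birc3 and Bak1 in pre-dropout males (red), normal males (dark blue) and normal females (light blue), with a bar at the median and a dotted line at 3 counts, the limit that a count of 0 allows. In Birc5, 3 of the 4 pre-dropout rats lie at 20 to 54 counts and 5 of the 8 normal males at 0, while 7 normal females have 10 or more.

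Birc2 and Birc3, the ubiquitin ligases cIAP1 and cIAP2, gave low values in the same pair of pre-dropout rats. Birc2 had 60.2 CPM in T353M, 8.55 in T389M, 28.9 in T391M and 7.36 in T407M, against a lowest of 0, a median of 38.9 and a highest of 91.6 CPM in normal rats. T389M and T407M lay below 23 of the 24 normal rats, and T353M exceeded the median of the normal rats. Birc3 had 31.9, 0, 22.4 and 0 CPM in the same 4 rats, against 0 to 82.4 CPM with a median of 11.3 in normal rats. The 3 libraries lowest in Birc2 (T447M, T407M and T389M) were 3 of the 5 in which Birc3 had no count. The log2 fold change was -0.67 (standard error 0.66) for Birc2 and -0.13 (1.28) for Birc3, and neither passed.

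These paralogs lie close in sequence and shared reads in the counting. Both had fractional counts in the same 8 libraries, and in 6 of those the fractions added up to a whole number within 0.02, so their separate levels are uncertain. Summed, they gave 92.1 CPM in T353M, 8.55 in T389M, 51.3 in T391M and 7.36 in T407M, against a median of 53.8 CPM in normal rats (0 to 158). The sum still ranged widely among pre-dropout rats, and 22 of the 24 normal rats lay inside that range.

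Xiap is the direct caspase inhibitor and Birc6 a giant protein that joins ubiquitin to caspases. Over all 28 rats they had the lowest coefficients of variation of CPM in the BIRC family (0.432 and 0.417). In the 24 normal rats alone Birc2 was lowest (0.425, against 0.441 for Birc6 and 0.450 for Xiap). Xiap had 211 CPM in T353M, 157 in T389M, 114 in T391M and 221 in T407M, against a lowest of 31.7, a median of 131 and a highest of 297 CPM in normal rats. Birc6 had 159, 144, 154 and 95.7 CPM in those rats, against 5.61, 103 and 206 CPM as lowest, median and highest of the normal rats. In each gene 3 pre-dropout rats exceeded the median of the normal rats, and the groups overlapped. The log2 fold change was 0.45 (standard error 0.36) for Xiap and 0.46 (0.41) for Birc6, with an adjusted p of 0.9999 for both in edgeR. Within 2 standard errors these data leave room for -0.26 to 1.17 in Xiap and -0.36 to 1.28 in Birc6, which takes in no change as well as a difference above 2-fold.

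Bcl2, the founding survival gene of its family, was scarce in this tissue. It had 0 CPM in T353M, 7.39 in T389M, 0.894 in T391M and 0 in T407M, against 0, 3.02 and 23.3 CPM as lowest, median and highest of the normal rats. T389M alone of them exceeded the median of the normal rats, with 32 counts, and the other 3 had 0 to 3 counts. Its estimate of -1.21 on the log2 scale (standard error 1.87) missed the threshold, and without T389M it was -3.82. Bcl2l1 exceeded it in TPM in 28 of 28 rats.

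Bcl2l1, whose main product is the survival protein BCL-XL, was well covered and nearly level between the groups. It had 166 CPM in T353M, 186 in T389M, 122 in T391M and 123 in T407M, against 41.2, 113 and 310 CPM as lowest, median and highest of the normal rats. Each of the 4 exceeded the median of the normal rats, yet 6 normal rats stood above all of them. The means were 149 ± 31.9 CPM in pre-dropout rats (SD, n = 4) and 135 ± 71.1 CPM in normal rats (SD, n = 24). The estimate was 0.16 on the log2 scale (standard error 0.40), and 2 standard errors around it span -0.63 to 0.95, short of a 2-fold difference in either direction in this fit. Within set A it was 0.32 (0.39), and with limma-voom's sample weights 0.65 (0.31), and 2 standard errors around each of these do take in a difference above 2-fold.

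Mcl1, a short-lived survival protein, varied 6.04-fold among all rats and little between the groups. It had 123 CPM in T353M, 59.4 in T389M, 72.5 in T391M and 177 in T407M, against 34.7, 78.1 and 210 CPM as lowest, median and highest of the normal rats. The pre-dropout rats were split evenly around the normal median, and 17 normal rats lay inside their range. The estimate was 0.18 on the log2 scale (standard error 0.39), with -0.60 to 0.97 inside 2 standard errors.

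Across rats, Mcl1 was correlated with transcripts of red blood cells. Among 9827 genes, Rpl39, a ribosomal protein gene, was most like it (Spearman's rho = 0.82 over 28 libraries), and the beta-globin gene Hbb-bs was the fourth (rho = 0.77, with 0.79 in the 16 libraries of set A and 0.74 in the 12 of set B). Hbb-bs had 263 to 1933 CPM in pre-dropout rats and 14.6 to 2234 CPM in normal rats, and T407M was the highest pre-dropout rat in both genes. The 5 erythrocyte markers found in the tables summed to 313 to 2009 CPM in pre-dropout rats and 18.9 to 2349 CPM in normal rats. Mcl1 also tended to be lower in deeper libraries (rho = -0.56 with the total count). The part of blood left in the vessels, or of depth, in the level of Mcl1 was not tested.

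**Figure D3:**
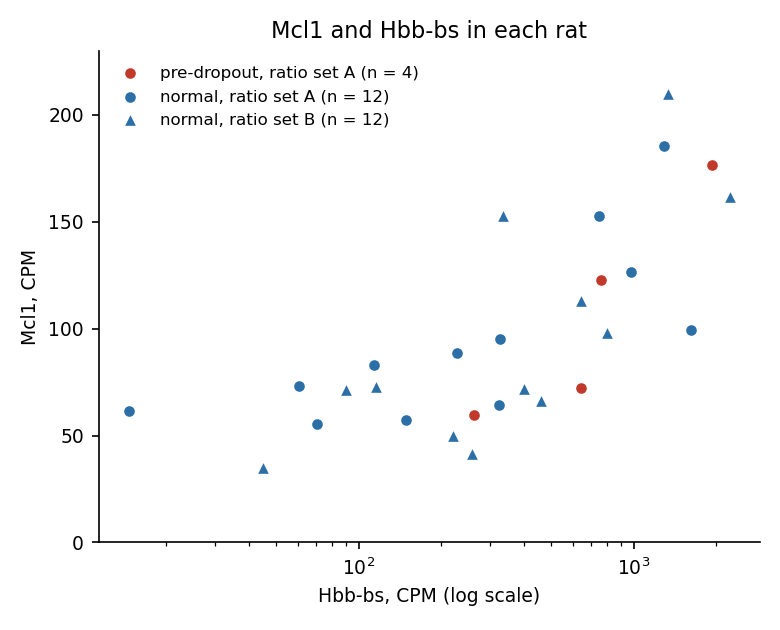
Mcl1 (CPM, linear axis) against the beta-globin gene Hbb-bs (CPM, log axis) in each library, pre-dropout rats in red and normal rats in blue, with circles for set A and triangles for set B. Mcl1 is 34.7 to 210 CPM, values tend to be higher at higher Hbb-bs in both sets, T410F (153 CPM, set B) stands at a middling Hbb-bs of 336 CPM, and the pre-dropout rats lie among the normal rats.

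Bax and Bak1, the pair that opens the mitochondrial membrane, differed in coverage. Bax had 59.3 CPM in T353M, 11.3 in T389M, 29.8 in T391M and 33.3 in T407M, against 0, 30.8 and 102 CPM as lowest, median and highest of the normal rats. Bak1 had 20.2, 4.16, 10.7 and 0 CPM in these rats, against 0, 9.36 and 39.4 CPM in normal rats. T353M was the highest and the pre-dropout rats overlapped the normal rats in both genes. The log2 fold change was 0.03 (standard error 0.82) for Bax and -0.34 (1.37) for Bak1, and neither passed. Bax exceeded Bak1 in TPM in 17 of 28 rats. Of the survival genes, Mcl1 stood above Bax by TPM in 28, Bcl2l1 in 27 and Bcl2 in 3 of 28 rats.

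None of the members passed between pre-dropout and normal rats, a contrast that asks what changes just before capillaries are lost. Calls needed a Benjamini-Hochberg adjusted p below 0.05 with a change above 2-fold. In edgeR's quasi-likelihood test 0 of the 10 members were called and 0 of all 13800 genes tested (0%). At an unadjusted p under 0.05 the count was 0 of 10, against 394 genes (2.86%), of which 367 were lower and 27 higher in pre-dropout rats. Markers of rod photoreceptors were below 0 in 7 of 8 genes (median -0.83) and those of pericytes in 6 of 6 (-0.43). Endothelial markers were above 0 in 7 of 8 (0.17) and erythrocyte markers in 3 of 3 tested (0.75). Of these markers 0 were called, and their part in the members' values was not tested. The estimate was above 0 for 6 of 10 members, of which Bax was -0.0067 with DESeq2's size factors, against 41.1% of all genes, and the median log2 fold change was 0.10 for the members and -0.13 for all genes. Where TPM was tested instead of scaled counts, the share of all genes above 0 was 55.3% with a pseudocount of 1 and 60.9% with 0.1, so the sign of a small change depends on the scale. Of the members, 0 were called by DESeq2 and 0 by limma-voom, which gave an unadjusted p under 0.05 for Xiap and Bcl2l1 (adjusted p = 0.459 and 0.514). The share of all genes under 0.05 by limma-voom is not given here, so whether these members exceed it cannot be read. Within set A alone, 0 members were called and each of the 10 estimates kept its sign.

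**Figure D4:**
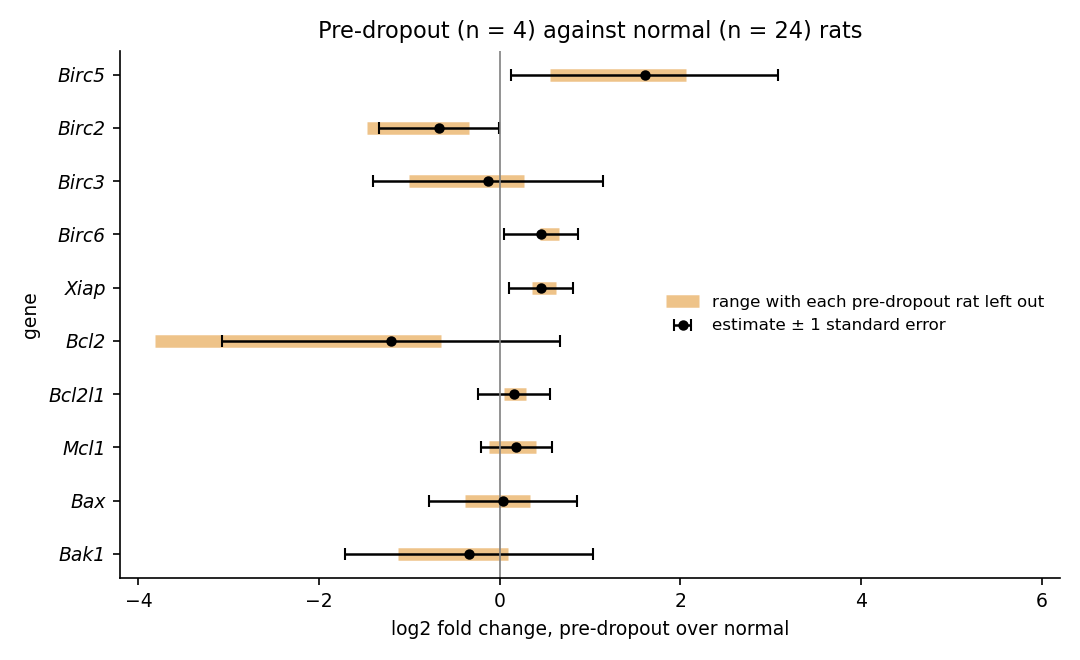
Log2 fold change of each gene, pre-dropout over normal, as a point with 1 standard error on each side, over an orange band that spans the estimates with each pre-dropout rat left out. The sparse genes Birc5 (1.61), Bcl2 (-1.21), Birc3 (-0.13) and Bak1 (-0.34) have the widest errors, Xiap, Birc6, Bcl2l1 and Mcl1 lie within 0.5 of 0, and Birc3, Mcl1, Bax and Bak1 have bands that cross 0.

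Density within the normal range was examined next, to see whether a member follows the number of acellular capillaries before the pre-dropout range. In 24 normal rats, with sex as a covariate, 0 of 10 members were called on the slope, against 0 of 13677 genes (0%), and 0 against 1.12% had an unadjusted p under 0.05. The slope was negative for 8 of 10 members, of which Birc6 was 0.04 with DESeq2's size factors, against 43.7% of all genes. Cell type markers had slopes too, above 0 in 8 of 8 rod photoreceptor genes (median 1.30) and 5 of 5 Muller glia and astrocyte genes (0.52). Slopes were below 0 in 7 of 8 endothelial (-0.27), 6 of 6 pericyte (-0.28) and 3 of 3 tested erythrocyte genes (-1.10). Of these markers 0 were called. In edgeR 3 of the 8 rod photoreceptor genes had an unadjusted p under 0.05. The count was 0 in the Muller glia and astrocyte, endothelial, pericyte and erythrocyte lists. The part of these markers in the slopes of the members was not tested. Per 5 capillaries per square millimeter the slope was -0.41 for Bcl2l1 (standard error 0.35), -0.35 for Mcl1 (0.32), -0.63 for Bax (0.63) and -0.90 for Bcl2 (1.54) on the log2 scale. Birc5 had the largest positive slope, 0.98 (standard error 1.41), and Xiap the other, 0.18 (0.34). Birc5 had at least 1 count in 4 of the 11 normal rats with 10 per square millimeter or more and in 10 of the 13 below 10, the opposite order, though each part held 4 rats with at least 10 counts. Each slope lay within 2 standard errors of 0.

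Random blood glucose was examined over all 28 rats with sex as a covariate. Again 0 of 10 members were called, against 0 of 13800 genes (0%), and 0 of 10 had an unadjusted p under 0.05, against 3.80% of all genes. Of the better covered genes, 5 had slopes within 0.10 of 0 per 100 mg/dL, a unit that is a part of the range of 52 to 443 mg/dL. Per 100 mg/dL the log2 change was 0.00 for Xiap (standard error 0.12) and for Mcl1 (0.14), 0.02 for Bcl2l1 (0.13), -0.04 for Birc6 (0.14) and -0.10 for Birc2 (0.21). For these 5 genes, 2 standard errors leave room for at most -0.52 to 0.32 per 100 mg/dL. Bax, covered about as well as Birc2, had a slope of -0.22 (standard error 0.27), with -0.77 to 0.32 inside 2 standard errors. Only 5 rats lay above 200 mg/dL, of which T389M and T391M were pre-dropout rats, so the slope rests on few animals. On this slope 8 of 8 rod photoreceptor markers were above 0 (median 0.27) and 6 of 6 pericyte markers below 0 (-0.17), with 0 called. Of all 13800 genes, 7230 were above 0 and 6570 below.

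Bcl2 had a low count in most of those 5 rats. T389M, with the highest glucose (443 mg/dL), had 32 counts, and the other 4 had 0 to 3, while 12 of the 23 rats at 200 mg/dL or below had more than 3 counts. Its slope was -0.30 (standard error 0.58) over all rats and -2.14 in the 24 normal rats alone, where its adjusted p in edgeR was 0.946. The slope of Birc5 was -0.43 (standard error 0.77) over all rats and 0.59 in the normal rats alone.

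**Figure D5:**
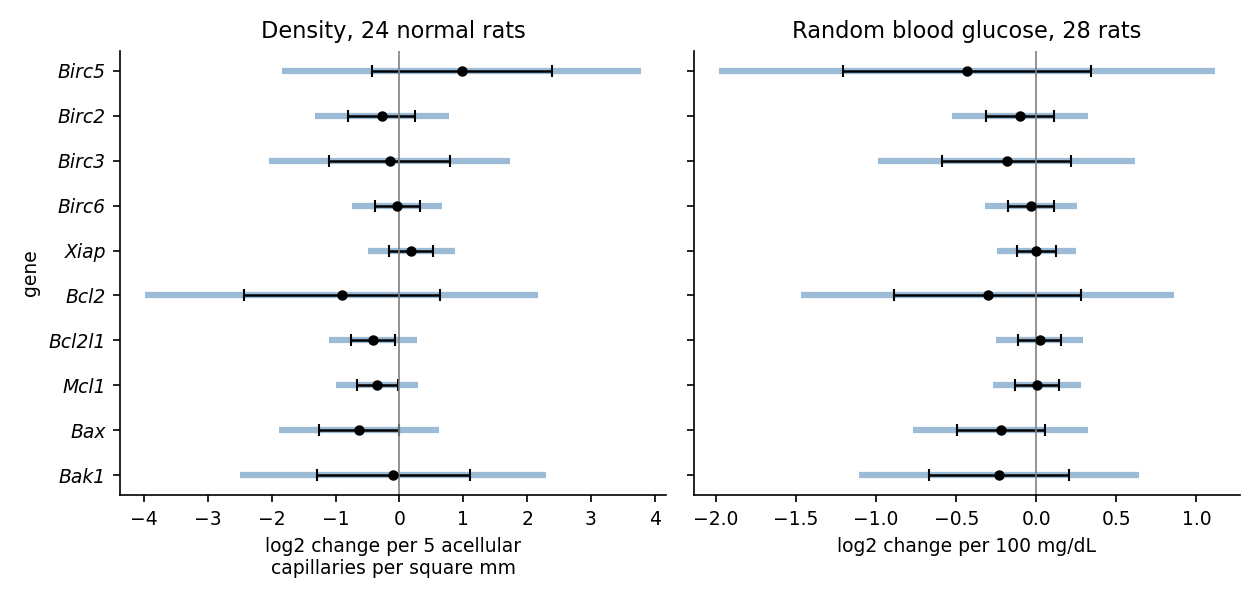
Slope of each gene on acellular capillary density in 24 normal rats (left, log2 change per 5 per square millimeter) and on random blood glucose in 28 rats (right, log2 change per 100 mg/dL), with 1 standard error as a black bar and 2 as a blue band. Every band includes 0, and the bands are narrowest for Birc6, Xiap, Bcl2l1 and Mcl1.

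All pre-dropout rats were male, so male and female normal rats were compared (8 against 16). Of the 12162 genes tested 3 were called (0.0247%), Kdm5d, Ddx3y and Eif2s3y, which are Y-linked genes and were higher in males, and 0 of the 9 members tested. At an unadjusted p under 0.05 the count was 0 of 9 members, against 4.38% of all genes. The largest estimates among members were 1.11 for Birc3 (standard error 0.94) and 0.97 for Bax (0.67). Bax had a median of 43.1 CPM in males and 29.2 CPM in females, and with sex as a covariate its log2 fold change of pre-dropout over normal rats was -0.51 in place of 0.03. Birc6 (-0.01), Xiap (0.04), Bcl2 (0.05) and Bcl2l1 (-0.06) were nearly level between the sexes. With DESeq2's size factors the median of all genes was -0.18 in this comparison, against -0.04 with TMM scaling, a shift larger than these differences. In males 8 of 8 endothelial, 6 of 6 pericyte and 3 of 3 tested erythrocyte markers had estimates above 0 (medians 0.30, 0.40 and 0.75), with 0 called. Of all 12162 genes, 5799 were above 0.

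Correlations among the 10 genes over rats were mostly weak. Over 28 libraries the closest pairs were Birc2 and Bax (Spearman's rho = 0.65), Mcl1 and Bax (0.58), and Bcl2l1 and Mcl1 (0.53), and the remaining 42 pairs lay between -0.36 and 0.38. The gene most like each member was, for Xiap, Luzp1 (rho = 0.82), for Bax, Htr1b, a serotonin receptor gene (0.81), for Birc6, Ubn1 (0.77), for Birc2, Spcs3, a subunit of the signal peptidase (0.73), for Bcl2l1, Stx12 (0.72, with Paqr5 at the same value), for Birc3, the caspase gene Casp2 (0.72), for Bcl2, Mrpl30, a mitochondrial ribosomal protein gene (0.70), and for Bak1, Calcoco1 (0.66). For Birc5, Eif4e1b (0.73) and Top2a, the topoisomerase that separates chromosomes in dividing cells (0.73), were among the closest. Top2a reached 0.85 in set A and 0.63 in set B, and was counted in 21 of the 28 libraries. Birc5 itself had a rho of 0.58 with the number of genes detected and 0.37 with the total count. The part of these in its likeness to Top2a was not tested. The values of the closest genes are among the highest of 9827 or 9828 each, over libraries that share differences of depth, and are given as a description.

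Among other genes of the pathway, 0 were called between pre-dropout and normal rats. Among 7 tested genes, 6 that encode BH3-only proteins and Bok, an effector like Bax and Bak1, 3 estimates were above 0, and Bmf had the smallest p. It was counted in 1 of 4 pre-dropout rats, at 0.433 CPM, and in 14 of 24 normal rats with a highest value of 21.02 CPM (log2 fold change -5.17, standard error 2.56, unadjusted p = 0.04996 in edgeR). Bid followed with -3.76 (2.28). In the 8 NF-kB genes, Tnfaip3, the ubiquitin-editing enzyme A20 that restrains that pathway, was counted in 1 of 4 pre-dropout rats, at 0.596 CPM, and in 15 of 24 normal rats up to 33.5 CPM (-5.21, standard error 2.43, unadjusted p = 0.0380). Both had an adjusted p of 0.9999, and both are among the 367 genes lower at an unadjusted p under 0.05. Vcam1, an endothelial adhesion molecule, was 143 to 656 CPM in pre-dropout rats and 72.4 to 654 CPM in normal rats (0.63, standard error 0.39). For genes with so few counts a fitted value depends on the prior count, and none is a bound.

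Receptors and executioners gave no call either. Of the 10 death receptor and adaptor genes 7 were above 0, with Traf1, an adaptor that binds Birc2 and Birc3, at -4.94 (standard error 2.61) and Tradd at 1.39 (1.57). Apaf1, the core of the apoptosome, had 19.98 to 55.2 CPM in pre-dropout rats and 0 to 54.6 CPM in normal rats (1.11, standard error 0.99), and of the 8 genes of apoptosome and caspases 4 were above 0, with Cycs, cytochrome c itself, at -0.34 (0.42). The 3 tested antagonists of IAP proteins included Xaf1 at 0.48 (0.57) and Sept4 at -0.26 (0.30), and the 6 genes of p53 and its targets included Sesn2 at 0.72 (1.23) and Trp53 at -0.38 (1.27). In the cell division list 8 of 19 were above 0, with Plk1 at -3.94 (2.27) and Kif20a at -2.40 (1.69), and Incenp, the scaffold that binds Birc5, was at -0.10 (1.54). Of the other survival genes of the BCL2 family, Bcl2l2 was level (0.10, standard error 0.38) and Bcl2l10 was counted in 7 of 28 libraries. Bcl2a1a was counted only in T407M, with 32 counts. Bcl2a1d, another Bcl2a1 entry, was counted only in the normal rat T404F, with 5 counts. The other 5 BIRC genes, the Naip genes and Birc7, were too low to be tested. The p53 list had a positive slope on density within normal rats for 6 of 6 genes, with a median of 0.75 per 5 per square millimeter against 0.09 for all genes and 0 called. On that slope 8 of 8 rod photoreceptor genes (median 1.30) and 5 of 5 Muller glia and astrocyte genes (median 0.52) were also positive, and their part in it was not tested.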

How the data were processed

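The tables used were made by the authors, with mouse gene symbols and 1 column a rat. The first holds expected counts, which the authors estimated for each gene and did not scale between libraries, and the second TPM, in which the authors divided by transcript length and library. The symbols point to the authors' comparative pipeline for species without a genome, and neither its versions nor the strand of the kit is given in the sources used here. Counts from mapping on that species' own genome were not used here.

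Expected counts were rounded. Genes were kept by filterByExpr (minimum count 10), scaled by TMM and tested in edgeR 4.0.16 by quasi-likelihood, with Benjamini-Hochberg adjustment over all genes tested. EBSeq, the tool of the study, is not installed. DESeq2 1.42.0 and limma 3.58.1 in R 4.3.3 were alternatives, as were other scaling, filters, covariates, pseudocounts and subsets of rats. Levels used Python 3.11.15, NumPy 2.4.6, SciPy 1.17.1 and pandas 2.3.3. The fits were tested on simulated data.

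Rats were grouped by the capillary density in the labels, and p-values treat the rats as replicates. The members and lists were chosen with earlier results of these data known. Named were the 10 members, the 2 genes of smallest p in each pathway list, the 3 genes most like Birc5 and the 1 most like each other member by Spearman's rho of log2 CPM, among genes counted in at least 20 libraries, of which 1 is not reported here. Other genes named beside these were chosen after their values were seen. Totals ran from 153111 to 10029207 counts, so the shallowest libraries resolve only abundant genes, and limits from counts cover counting error only. The list symbols Bcl2a1b, Hrk, Septin4, Sele, Hba-a1 and Hbb-bt are not in the tables and were not used.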

Additional observations from a re-analysis of the deposited data

Results flagged for a closer look

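Among the 4 pre-dropout rats, Bcl2 in T389M (7.39 CPM, with 32 counts) stood apart from the other 3, which had 0 to 0.894 CPM. The gap was 0.879 of the range of the group, above the 95% critical value of Dixon's test for 4 samples. The pre-dropout values of the 10 genes were examined in this way, and chance alone flags about 1 group in 20 where values are normally distributed. Bcl2 had no count in 2 of the 4 rats, so that rate need not hold for it. The highest normal rat had 23.3 CPM.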

How the results depend on the processing

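None of the 10 members was called under any alternative run, and 377 values of single members kept their direction while 37 did not. The smallest adjusted p of any alternative was 0.459 (Xiap, limma-voom). The order by TPM was the same for 10 of 10 genes by mean TPM and in libraries over 1000000 counts. Counts over all genes were less stable. Between pre-dropout and normal rats, against 0 called in edgeR, 72 were called with no filter on low counts, 5 by DESeq2 (Foxh1, Psmg2, Nufip1, Hadhb and Glod4, all lower) and 4 by limma-voom (Kdm5d, Ddx3y and Eif2s3y higher, Psmg2 lower). Leaving out each pre-dropout rat in turn gave 0 to 0 calls. The density slope had 45 calls with no filter. The glucose slope had 152 with no filter, 21 by DESeq2 and 2 in normal rats alone (Znhit1 and Gm45623). Males and females differed in 34 genes by DESeq2.

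For the 37 estimates that changed sign the cause was not tested. Between pre-dropout and normal rats, Bax was -0.0067 with DESeq2's size factors, -0.0057 by DESeq2, -0.51 with sex as a covariate and -0.51 in males only, -0.38 without T353M and -0.39 in males of set A. Birc3 was 0.27 without T389M and 0.27 without T407M. Without T407M, Mcl1 was -0.11 and Bak1 0.088, and Mcl1 was -0.19 in males of set A. On density, Birc6 was 0.042 with DESeq2's size factors, 0.042 by DESeq2 and 0.17 over all 28 rats, and Birc3 was 0.085 with no covariate. On glucose, Mcl1 was -0.00055 with DESeq2's size factors, -0.00011 by DESeq2 and -0.017 in libraries with at least 10000 genes. Xiap was -0.0084 with no filter, -0.041 in libraries over 1000000 counts, -0.014 with the ratio set as a covariate and -0.033 in libraries with at least 10000 genes. In normal rats only, Birc5 was 0.59, Birc2 0.030 and Bcl2l1 -0.046. Between males and females, Birc2 was -0.050 and -0.037, Xiap -0.12 and -0.12, and Bcl2 -0.025 and -0.024, first with DESeq2's size factors and then by DESeq2. In libraries over 1000000 counts Birc6 was 0.086 and Bcl2 -0.39, Birc6 was 0.030 with the ratio set as a covariate, and with at least 10000 genes Bcl2 was -0.58, Bcl2l1 0.0034 and Bak1 -0.54. The alternatives by ratio set and by genes detected were chosen after seeing the data.

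Without each pre-dropout rat in turn, Birc5 lay between 0.56 and 2.07, Bcl2 between -3.82 and -0.66, Birc2 between -1.46 and -0.35, Birc3 between -1.01 and 0.27, Bak1 between -1.13 and 0.088, Bax between -0.38 and 0.33 and Mcl1 between -0.11 and 0.40. No paired analysis was possible because the rats carry no replicate numbers that link the groups. Low totals limit the sparse genes, since a count of 0 allows up to 15.3 CPM in the shallowest library.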
